A study of Mus musculus with 6 samples.

Results

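Liver mRNA of mice lacking the lysosomal lysophospholipid transporter SPNS1 was examined for 9 genes of glucose production, glucose sensing and glycogen. The genes were taken by symbol from the deposited count table, where all 9 were among the 54532 genes listed. They were *Pcx*, *Pck1*, *Fbp1* and *G6pc* for the enzymes of gluconeogenesis, *Ppargc1a* for their coactivator, *Slc2a2* for the glucose transporter, *Pklr* for the opposing glycolytic enzyme, and *Gys2* and *Pygl* for glycogen. Of these genes, 4 were lower and 1 was higher in the knockout livers after scaling the libraries to each other, and only the fall of *Pck1* and the rise of *Ppargc1a* were called under all 4 scalings compared. Of all genes tested, 20.5% were lower and 21.3% higher after that scaling, and 3.88% were lower and 21.3% higher under all 4. Every gene called higher after that scaling was called higher under all 4, so for a rise the other scalings add no support.

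The liver makes glucose between meals and stores it after them. Pyruvate carboxylase, encoded by *Pcx*, turns pyruvate into oxaloacetate in mitochondria, phosphoenolpyruvate carboxykinase (*Pck1*) turns oxaloacetate into phosphoenolpyruvate, fructose-1,6-bisphosphatase (*Fbp1*) bypasses the irreversible step of phosphofructokinase, and glucose-6-phosphatase (*G6pc*) releases free glucose, which leaves or enters the hepatocyte through GLUT2, the product of *Slc2a2*. Glucagon, acting through cAMP and CREB, raises transcription of *Pck1*, *G6pc* and the coactivator PGC-1α (*Ppargc1a*), whereas insulin represses them. Liver pyruvate kinase (*Pklr*) runs the opposite way, from phosphoenolpyruvate to pyruvate, and its gene is induced by glucose through the transcription factor ChREBP. Liver glycogen synthase (*Gys2*) builds glycogen and liver glycogen phosphorylase (*Pygl*) breaks it down.

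The study compared 3 g*Spns1*-cKO livers with 3 control livers, 1 library per mouse, to learn which transcripts change in the liver when *Spns1* is lost after birth. g*Spns1*-cKO mice carry *Spns1* fl/fl alleles, with loxP sites on both sides of exon 3, together with Rosa26Cre-ERT2, a tamoxifen-activated Cre expressed from a ubiquitous locus, so that deletion was induced in the whole body and not in hepatocytes alone. The controls were *Spns1* fl/fl littermates according to the study's methods and are called wild type in the sample labels, and whether they also received tamoxifen is not stated. The age and sex of these mice, their feeding state and the hour at which the livers were taken are not given in the sources used here. Transcripts of glucose production and storage are known to vary with feeding and with the time of day.

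The libraries held between 30350002 and 35295611 counts, and 15449 genes passed the filter on low counts, the 9 glucose genes among them. The numbers of genes with a count were 19623 to 20829 in control and 22267 to 22345 in g*Spns1*-cKO livers. Values below are in CPM, counts divided by a scaled library size, after TMM scaling, which sets the typical gene equal between libraries, unless another scale is named. The TMM factors were 0.834 to 0.873 in the controls and 1.16 to 1.18 in g*Spns1*-cKO livers, so a gene taking the same share of both libraries comes out lower in g*Spns1*-cKO livers after TMM. Summed CPM of 15 hepatocyte markers were 133000 to 145000 in control and 78600 to 90100 in g*Spns1*-cKO livers, with 11 of them lower and a median log2 change of -0.73, and of their most abundant members *Alb* changed by -0.73 and *Apoa1* by -0.76. All 15 macrophage markers were higher, with a summed level of 210 to 326 CPM in control and 889 to 1290 CPM in g*Spns1*-cKO livers. In such whole tissue, fewer cells of a type and less RNA per cell cannot be told apart. *Spns1* itself was at 35.9, 50.7 and 34.6 CPM in control and at 17.8, 30.6 and 17.8 CPM in g*Spns1*-cKO livers, a log2 change of -0.87 (SE 0.25, adjusted p = 0.03, edgeR's quasi-likelihood test). The groups did not overlap, but the counts include exons outside the deleted part, and the change was -0.43 (adjusted p = 0.213) when libraries were scaled by their totals alone.

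The response elements for which these promoters are known were looked for by their letters in the 250 bases before each transcription start listed by RefSeq (GRCm38.p6), on both strands. Of the 9 genes, 8 had at least 1 such window, 10 windows in all, and *Gys2* had none. The stretches with a match are shown for *Pck1*, *G6pc*, *Ppargc1a* and *Pklr*, the genes for which cAMP, insulin or glucose control is best known, with the matching letters in capitals and 25 bases on each side.
*Pck1* (chr2:173152955-173153012, plus strand, bases -118 to -61 from the start): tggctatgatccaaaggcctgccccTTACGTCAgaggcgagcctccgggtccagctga
*G6pc* (chr11:101367517-101367586, plus strand, bases -199 to -130): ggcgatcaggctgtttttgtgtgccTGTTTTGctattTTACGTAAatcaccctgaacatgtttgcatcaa
*Ppargc1a* (chr5:51567745-51567800, minus strand, bases -75 to -20): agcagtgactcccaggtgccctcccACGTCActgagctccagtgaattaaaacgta
*Pklr* (chr3:89136428-89136494, plus strand, bases -195 to -129): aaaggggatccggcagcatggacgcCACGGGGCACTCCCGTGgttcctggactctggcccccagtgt

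The capitals in *Pck1* spell a site bound by CREB and by C/EBP factors, searched as TTACGTNA, which 0.788% of all 32851 promoter windows hold, and it contains the CREB half-site ACGTCA, held by 6.47%. *G6pc* has a match to the same 8 letters and, just before it, the core of an insulin response element, CAAAACA read on the other strand and held by 5.56% of windows. *Ppargc1a* has the CREB half-site alone. The capitals in *Pklr* are a carbohydrate response element, a pair of E-box-like sequences 5 bases apart, searched as CACGNG and CNCGTG on the same strand with those 5 bases between, and held by 13 of all windows (0.0396%). The E-box CACGTG, held by 6.02% of windows, was also found in the *Pcx* window, and GTAAACA, the FoxO core held by 3.17%, was found in none of the 10. No letters matched in the windows of *Slc2a2*, *Fbp1* and *Pygl*. A match describes the letters only. Of the 3 genes with a CREB half-site or hybrid site, *Pck1* and *G6pc* were lower and *Ppargc1a* was higher with TMM scaling. The call of *G6pc* was lost under the other scalings, and the part of these sites in the changes was not tested.

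Before the groups are compared, the levels of the genes relative to each other are given in TPM, counts divided by the deposited gene length and by the sum of such values over the library. In every control liver *Pck1* was the most abundant of the 9 transcripts, at 1620, 2130 and 2220 TPM, *Fbp1* came next at 1330, 1280 and 1240 TPM and *G6pc* after it at 509, 436 and 299 TPM. *Pcx*, *Pklr*, *Gys2*, *Slc2a2* and *Pygl* lay between 120 and 285 TPM and changed places from mouse to mouse, so their order does not hold beyond the spread between mice. *Ppargc1a*, a coactivator needed in small amounts, was last in every library, at 2.26 to 2.93 TPM in control and 6.4 to 13.8 TPM in g*Spns1*-cKO livers. In g*Spns1*-cKO livers *Pck1* kept the first place in mouse 2 only, at 1370 TPM. In the other g*Spns1*-cKO mice *Fbp1* stood first, at 1400 and 1160 TPM, and in mouse 3 *Pklr*, at 542 TPM, also stood above *Pck1*, at 522 TPM.

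*Pck1*, the enzyme whose mRNA level is most closely tied to gluconeogenic signalling, was lower in every g*Spns1*-cKO liver. Its gene lies at chr2:173153048-173159273 on the plus strand of GRCm38 (ENSMUSG00000027513). It was at 2950, 3780 and 4120 CPM in control livers and at 1180, 1690 and 639 CPM in g*Spns1*-cKO livers. The highest g*Spns1*-cKO liver lay below the lowest control. The means were 3610 ± 605 and 1170 ± 525 CPM (SD, n = 3 each), and by edgeR's quasi-likelihood test the change was -1.63 on the log2 scale (SE 0.33, adjusted p = 0.0052), or 3.1-fold lower. Only 2.67% of the genes tested had a lower log2 change. The fall remained at every scaling, from -1.63 with TMM to -1.18 (adjusted p = 0.0159) by library totals and -1.02 (adjusted p = 0.0101) when the hepatocyte markers were set equal between libraries. Its spread was wider in g*Spns1*-cKO livers, where the coefficient of variation was 44.9%, against 16.8% in controls.

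Counting *Pck1*, 5 of the 9 genes passed the threshold of 0.05 on the adjusted p, where 41.8% of all genes tested passed it, with 21.3% called higher and 20.5% called lower. The 4 lower genes were the 4 gluconeogenic enzymes. In 3 of those 4 and in *Ppargc1a* the groups did not overlap, as was true of 54.1% of all genes tested. The share of the 9 genes called was near the share of all genes, and the median log2 change of the 9 was -0.43, where that of all genes tested was 0.014.

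**Figure D1:**
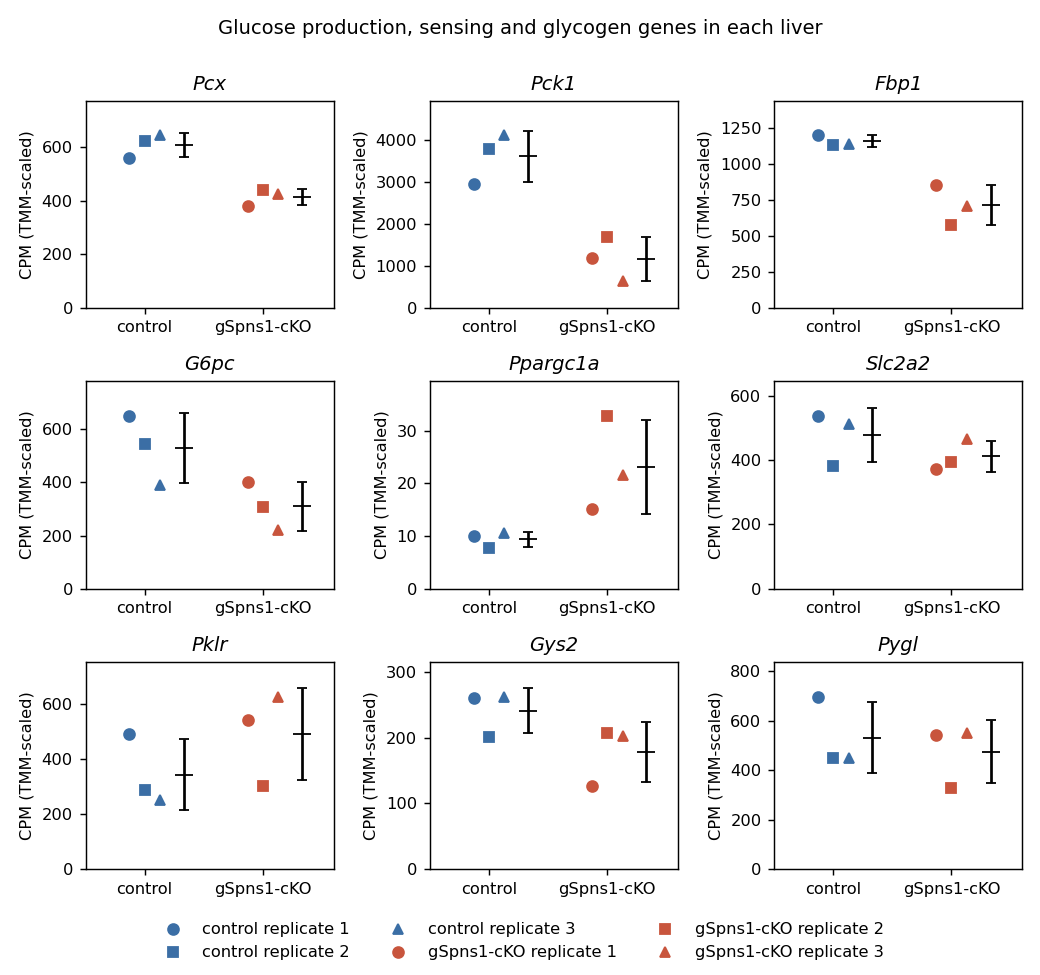
CPM after TMM scaling (linear axis from 0) of the 9 genes in each liver, 1 panel per gene, with a symbol for each of the 3 mice of a group and the group mean ± SD beside them. The groups are apart in *Pcx*, *Pck1*, *Fbp1* and *Ppargc1a* and overlap in the other 5 genes, and *Ppargc1a* is the gene whose g*Spns1*-cKO livers all lie above the controls.

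*Fbp1* and *Pcx*, the enzymes at the fructose bisphosphate and pyruvate steps, fell by less than *Pck1*. *Fbp1* (ENSMUSG00000069805, chr13:62864753-62888282, minus strand) was at 1200, 1130 and 1140 CPM in control and at 853, 575 and 707 CPM in g*Spns1*-cKO livers. The controls lay close to each other, with a coefficient of variation of 3.54%, and above all g*Spns1*-cKO livers. The change was -0.70 (SE 0.17, adjusted p = 0.00737), or 1.63-fold lower. *Pcx* (ENSMUSG00000024892, chr19:4510472-4621752, plus strand) was at 558, 624 and 645 CPM in control and at 379, 439 and 425 CPM in g*Spns1*-cKO livers. The groups were again apart, and the change was -0.56 (SE 0.14, adjusted p = 0.0082), or 1.47-fold lower. Neither call held when libraries were scaled by their totals, where *Fbp1* changed by -0.26 (adjusted p = 0.202) and *Pcx* by -0.11 (adjusted p = 0.506), nor with the hepatocyte markers set equal, where the changes were -0.05 (adjusted p = 0.808) and 0.08 (adjusted p = 0.628). *Fbp1* and *Pcx* thus fell about as far as the hepatocyte markers did, and the part that the level of hepatocyte RNA has in their change was not tested.

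*G6pc*, which carries out the last step of both gluconeogenesis and glycogen breakdown, was lower on average but varied widely between mice. The gene (ENSMUSG00000078650, chr11:101367561-101377903, plus strand) was at 651, 545 and 390 CPM in control and at 403, 307 and 221 CPM in g*Spns1*-cKO livers. The groups overlapped, since the highest g*Spns1*-cKO liver lay above the lowest control. The change was -0.77 (SE 0.25, adjusted p = 0.0348), or 1.7-fold lower. The call was lost on leaving out control 1 (-0.61, adjusted p = 0.0974), control 2 (-0.75, adjusted p = 0.091), g*Spns1*-cKO 2 (-0.76, adjusted p = 0.103) or g*Spns1*-cKO 3 (-0.58, adjusted p = 0.0941). It was also lost with upper-quartile scaling (-0.65, adjusted p = 0.0658), by library totals (-0.33, adjusted p = 0.299) and with the hepatocyte markers set equal (-0.14, adjusted p = 0.639). The call held in edgeR with the size factors of DESeq2 as the scaling (-0.77, adjusted p = 0.0325).

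*Ppargc1a* moved against the enzymes that it is known to coactivate. The gene (ENSMUSG00000029167, chr5:51454250-51567726, minus strand) had 279, 238 and 265 counts in control and 543, 1257 and 845 counts in g*Spns1*-cKO livers, which is 9.92, 7.73 and 10.5 CPM and 15.1, 32.8 and 21.5 CPM. Every g*Spns1*-cKO liver lay above every control. The change was 1.30 (SE 0.28, adjusted p = 0.00822), or 2.47-fold higher, and 89.5% of the genes tested had a lower log2 change. It was 1.75 (adjusted p = 0.00159) by library totals and 1.93 (adjusted p = 6.36e-05) with the hepatocyte markers set equal. Every gene called higher with TMM was also called higher under these scalings. Without any 1 library the change lay between 0.97 and 1.53 and stayed past the threshold. *Ppargc1a* is also made by cells other than hepatocytes, and the libraries do not tell which cells carried the rise.

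The genes of transport, glycolysis and glycogen did not pass the threshold. *Slc2a2* (ENSMUSG00000027690, chr3:28697903-28731359, plus strand) was at 537, 381 and 513 CPM in control and at 372, 394 and 466 CPM in g*Spns1*-cKO livers, with overlapping groups and a change of -0.21 (SE 0.16, adjusted p = 0.322). *Pklr* (ENSMUSG00000041237, chr3:89136142-89146784, plus strand) was at 489, 287 and 252 CPM in control and at 541, 303 and 626 CPM in g*Spns1*-cKO livers. It was among the most variable of the 9 genes within both groups, with coefficients of variation of 37.3% and 34.1%, and its change was 0.52 (SE 0.34, adjusted p = 0.272). Exons of *Pklr* overlap *Hcn3* on the opposite strand, which had 10588 counts over the 6 libraries beside 84667 for *Pklr*, and without a stated strand setting the reads of the pair cannot be told apart where they overlap.

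Glycogen synthase and phosphorylase showed overlapping groups as well. *Gys2* (ENSMUSG00000030244, chr6:142422613-142473109, minus strand) was at 260, 201 and 262 CPM in control and at 126, 207 and 202 CPM in g*Spns1*-cKO livers, and its change was -0.43 (SE 0.2, adjusted p = 0.105). *Pygl* (ENSMUSG00000021069, chr12:70190811-70231488, minus strand) was at 696, 447 and 447 CPM in control and at 543, 327 and 551 CPM in g*Spns1*-cKO livers, changing by -0.16 (SE 0.24, adjusted p = 0.628). The direction of these changes rested on the scaling. By library totals *Slc2a2* was at 0.23, *Gys2* at 0.02 and *Pygl* at 0.28 on the log2 scale, and none of the 3 was called. With the hepatocyte markers set equal they were at 0.43 (adjusted p = 0.042), 0.2 (adjusted p = 0.347) and 0.49 (adjusted p = 0.149), and *Pklr* was at 1.17 (adjusted p = 0.0432). These counts do not settle the sign of the *Slc2a2*, *Gys2* and *Pygl* changes.

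**Figure D2:**
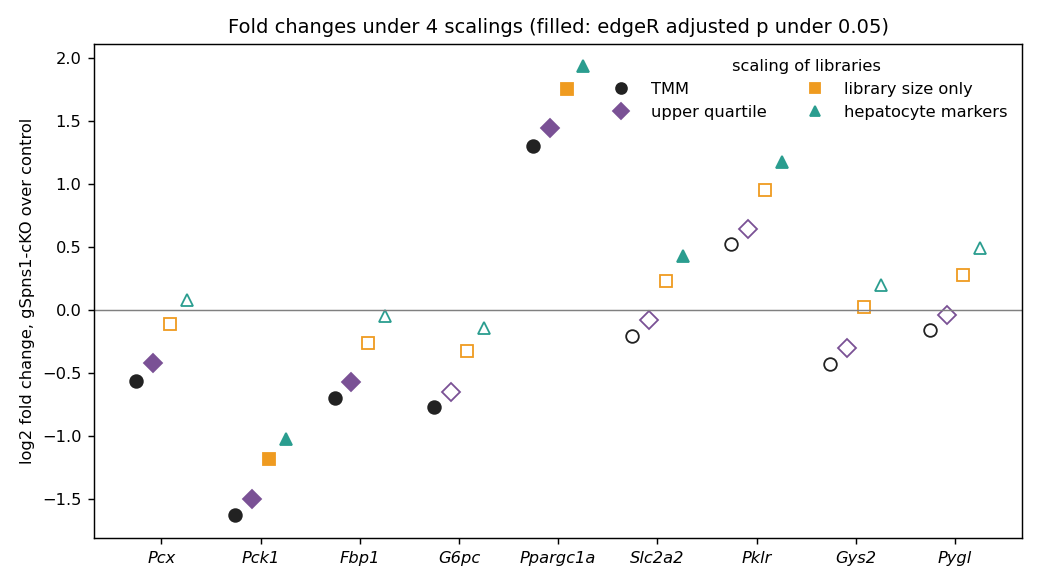
Log2 change (g*Spns1*-cKO over control, vertical axis) of each of the 9 genes under the 4 scalings compared, filled where the adjusted p was under 0.05. *Pck1* stays below 0 and *Ppargc1a* above 0 and filled throughout, while *Pcx*, *Slc2a2*, *Gys2* and *Pygl* cross 0.

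The livers of a group also differed among themselves in a patterned way. Within each group the order of the mice by *Pck1* was the reverse of their order by *Pklr*. Control 1 had the lowest *Pck1* of the controls, at 2950 CPM, and the highest *Pklr*, at 489 CPM. g*Spns1*-cKO 2 had the highest *Pck1* of its group, at 1690 CPM, with the lowest *Pklr*, at 303 CPM, and it also had the highest *Ppargc1a* and the lowest *Fbp1* and *Pygl*. The summed level of 14 genes known to be induced by feeding, the lipogenic enzymes prominent among them, ran from 9610 to 28100 CPM in control and from 7810 to 28400 CPM in g*Spns1*-cKO livers. The ends of this range within each group were control 1 at 28100 and control 2 at 9610 CPM, and g*Spns1*-cKO 1 at 28400 and g*Spns1*-cKO 2 at 7810 CPM. *Scd1* made up most of these sums, at 19000 and 5880 CPM in these controls and 21100 and 4270 CPM in these g*Spns1*-cKO livers. *Me1* and *Thrsp* had the same ends. *Fasn*, *Acly*, *Acaca* and *Elovl6* were also highest in control 1 and lowest in g*Spns1*-cKO 2. Their other ends were control 3, the lowest control, and g*Spns1*-cKO 3, the highest of its group. The list includes *Pklr* itself. These orders over 3 mice a group are a description, and no test was made of them.

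A ratio of 2 genes within a library does not depend on how the libraries are scaled, and 10 such ratios were compared. The exact two-sided permutation test of 3 mice against 3 cannot go below p = 0.1, the value given by every ratio whose groups did not overlap, so no ratio could pass 0.05 before or after adjustment. The ratio of *Pck1* to *Pklr*, the opposing enzymes at phosphoenolpyruvate, was on a per-length scale 5.69, 12.4 and 15.4 in control and 2.05, 5.25 and 0.963 in g*Spns1*-cKO livers. In the lowest of these livers the transcripts were about equally abundant. The ratio was lower by 2.24 on the log2 scale (a difference of -2.24, SE 0.83), or 4.72-fold. The ratios of *G6pc* to *Pklr* (-1.29, SE 0.48) and *Fbp1* to *Pklr* (-1.23, SE 0.34) were also lower without overlap. That of *Pcx* to *Pklr* (-1.07, SE 0.5, exact permutation p = 0.2) overlapped between the groups. *Pck1* relative to *G6pc* was lower by a log2 difference of -0.94 (SE 0.47) with overlapping groups (exact permutation p = 0.2). The ratio of *Gys2* to *Pygl*, synthase to phosphorylase, overlapped (-0.29, SE 0.46, exact permutation p = 0.6), and with an error of this size it does not show that the pair moved alike.

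The isoforms that other tissues use in place of the liver forms rose instead. Of 10 such counterpart genes, the hexokinases, *Pkm*, *Gys1*, *Pygb*, *Pygm*, *Slc2a1*, *Slc2a3* and *Fbp2*, 9 were tested and 8 were higher, with a median log2 change of 1.38 beside 0.014 for all genes tested. All 8 were called higher under all 4 scalings, as were 21.3% of all genes tested. That adds no support, since every gene called higher with TMM was called higher under all 4. *Pkm*, the pyruvate kinase of muscle and of most cells outside the liver, was at 16.1 to 20.8 CPM in control and at 62.7, 53.8 and 58.8 CPM in g*Spns1*-cKO livers. It changed by 1.62 (SE 0.12, adjusted p = 1.4e-05). *Pygb*, the brain glycogen phosphorylase, went from 3.88, 5.98 and 3.95 CPM to 22.5, 16.9 and 22.5 CPM, a change of 2.16 (SE 0.2, adjusted p = 3.98e-05). The hexokinases of low Michaelis constant rose likewise, *Hk2* by 2.21 (adjusted p = 0.00168) and *Hk3*, which is found in myeloid cells, by 2.16 on the log2 scale. The exception was *Slc2a1*, encoding GLUT1, at 8.47, 10.7 and 7.94 CPM in control and 7.98, 10.2 and 7.76 CPM in g*Spns1*-cKO livers (-0.06, SE 0.17, adjusted p = 0.794). *Gys1* rose by 0.90 (adjusted p = 0.0166), but its exons overlap *Ruvbl2* on the opposite strand, with 2423 counts over the 6 libraries beside 600 for *Gys1*, and those of *Hk3* overlap *Unc5a*, with 700 counts beside 1209.

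In ratios to the liver form within each library, *Pygb* to *Pygl* was higher by 2.35 (SE 0.38), *Gys1* to *Gys2* by 1.34 (SE 0.33) and *Pkm* to *Pklr* by 1.12 (SE 0.48), all without overlap (exact permutation p = 0.1 each). *Slc2a1* to *Slc2a2* was higher by 0.14 (SE 0.33) with overlap (exact permutation p = 0.8). The counterpart genes are used by macrophages, fibroblasts and bile duct cells, whose markers also rose. The summed level of 10 stellate and fibroblast markers was 208 to 244 CPM in control and 572 to 611 CPM in g*Spns1*-cKO livers, and that of 8 cholangiocyte markers 59.3 to 77.7 and 187 to 301 CPM, beside the macrophage sums given above. The part of these cells in the rise of the counterpart isoforms was not tested.

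**Figure D3:**
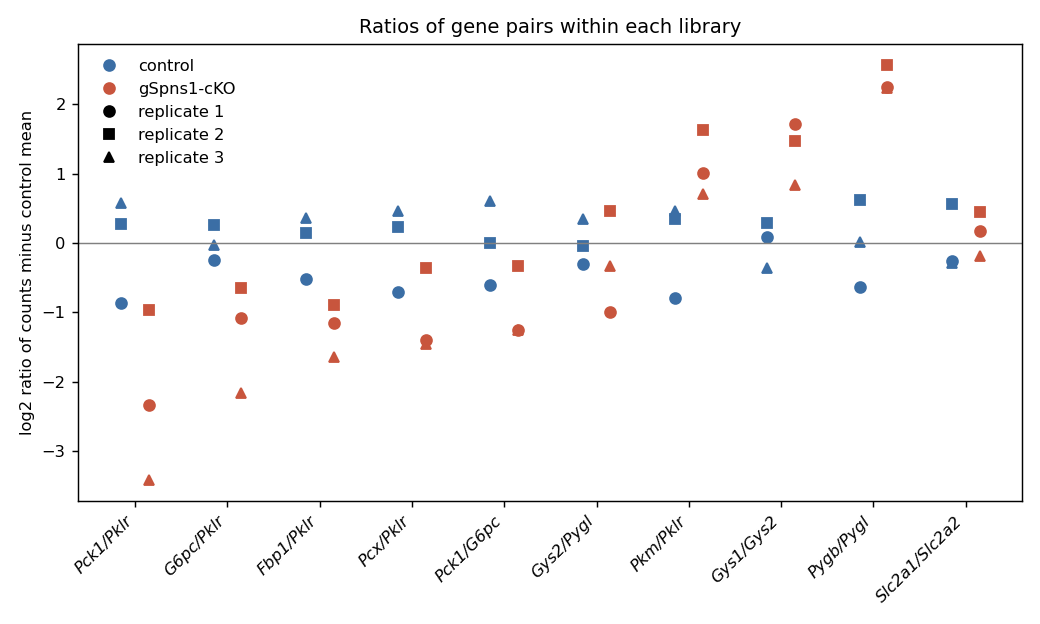
Log2 ratio of the counts of 2 genes in each liver, less the control mean of that ratio (vertical axis), for the 10 ratios, with control and g*Spns1*-cKO livers in separate colours and a symbol for each mouse. The g*Spns1*-cKO livers lie below the controls in the ratios of *Pck1*, *G6pc* and *Fbp1* to *Pklr* and above them in the ratios of *Pkm*, *Gys1* and *Pygb* to the liver forms.

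Among 27 further genes of the gluconeogenic route, 10 were lower and 4 higher, with a median log2 change of -0.11, where 20.5% of all genes tested were lower and 21.3% higher. The balance turned with the scaling, to 12 higher and 2 lower by library totals and 16 higher and 2 lower with the hepatocyte markers set equal. That of all 15449 genes tested turned likewise, to 7289 higher and 970 lower by library totals and 9293 and 601 with the markers. The lower genes with the largest changes supply carbon to the route. *Gpd1*, the cytosolic glycerol-3-phosphate dehydrogenase, was at 510, 419 and 460 CPM in control and at 184, 137 and 165 CPM in g*Spns1*-cKO livers (-1.51, SE 0.15, adjusted p = 5.31e-05), and *Slc25a10*, the mitochondrial dicarboxylate carrier, changed by -1.23 (adjusted p = 7.42e-05). Both were called lower under all 4 scalings, as were 3.88% of all genes tested. *Ldha*, the main lactate dehydrogenase subunit of liver (-0.82), and *Aqp9*, the glycerol channel (-0.75), were called lower with TMM and upper-quartile scaling but not by library totals or with the hepatocyte markers set equal. The higher genes were *Ldhb* (1.93), the other lactate dehydrogenase subunit, *Gpi1* (0.96), which interconverts glucose and fructose phosphates, *Slc16a1* (0.80), the lactate transporter, and *Mpc1* (0.71), a subunit of the mitochondrial pyruvate carrier, and all 4 were higher under all 4 scalings. So was every gene called higher with TMM. The count of lower genes in this list was 4 without control 3 and 4 without g*Spns1*-cKO 3.

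Among 30 regulators of gluconeogenic transcription, 15 were lower and 2 higher, with a median log2 change of -0.46, beside 20.5% lower and 21.3% higher of all genes tested. The counts also shifted, to 8 higher and 5 lower (median -0.02) by library totals. With the hepatocyte markers set equal 12 were higher and 3 lower (median 0.17). Under these scalings the median of all genes tested was 0.457 and 0.652, so the regulators' median stayed below it, as with TMM. Of all 15449 genes tested, 7289 were higher and 970 lower by library totals, and 9293 and 601 with the markers. *Cebpa*, the C/EBP factor of differentiated hepatocytes, was at 479, 585 and 549 CPM in control and at 258, 174 and 176 CPM in g*Spns1*-cKO livers (-1.41, SE 0.18, adjusted p = 0.000213). *Creb3l3*, encoding the liver-enriched factor CREBH (-1.35, SE 0.15, adjusted p = 8.79e-05), and *Cebpb* (-1.25, SE 0.17, adjusted p = 0.000486, with exons that overlap *Tmem189* on the opposite strand) fell with it, and these 3 were called lower under all 4 scalings. *Ppargc1b*, the relative of *Ppargc1a*, changed in the opposite direction to it (-1.18, adjusted p = 0.0192). That call was lost by library totals (-0.74, adjusted p = 0.0925) and with the hepatocyte markers set equal (-0.54, adjusted p = 0.182). *Nr0b2*, encoding the corepressor SHP, which is known to restrain gluconeogenic genes, was at 20.8, 12.0 and 17.5 CPM in control and at 48.2, 32.9 and 34.9 CPM in g*Spns1*-cKO livers (1.20, SE 0.22, adjusted p = 0.00338). *Sik2*, a kinase that restrains the CREB coactivators, was higher by 0.55 (adjusted p = 0.0389), but its exons overlap *Ppp2r1b* on the opposite strand, with 4031 counts beside 760. *Foxo1* (-0.52, adjusted p = 0.0524), the factor that insulin signalling keeps out of the nucleus, and *Hnf4a* (-0.42, adjusted p = 0.0666), a factor of hepatocyte identity, did not pass. The count of higher regulators was 4 without control 1 and 1 without control 2, control 3, g*Spns1*-cKO 2 or g*Spns1*-cKO 3.

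Among 21 genes of glucose sensing, 5 were higher and 4 lower, with a median log2 change of 0.03, which is about the share of all genes tested (21.3% higher and 20.5% lower). By library totals 10 were higher and 2 lower, and with the hepatocyte markers set equal 14 were higher and 1 lower. Of all 15449 genes tested, 7289 were higher and 970 lower by library totals, and 9293 and 601 with the markers. *Mlxipl*, encoding ChREBP, the factor that reads glucose for *Pklr*, did not differ detectably (-0.01, SE 0.32, adjusted p = 0.987). Its targets *Txnip* and *Arrdc4*, a pair of related arrestin-like genes, went opposite ways. *Txnip* was at 127, 193 and 145 CPM in control and 54.9, 87.3 and 45.9 CPM in g*Spns1*-cKO livers (-1.30, SE 0.27, adjusted p = 0.00757), while *Arrdc4* rose by 0.82 (adjusted p = 0.00116), both under all 4 scalings. Every gene called higher with TMM was called higher under all 4. *Khk*, the ketohexokinase of fructose breakdown, changed by -0.58 (adjusted p = 0.0277), a call lost under the other 3 scalings, with a sign that turned with the hepatocyte markers set equal (0.07). Of the enzymes that set fructose-2,6-bisphosphate, the signal between glycolysis and gluconeogenesis, *Pfkfb3* fell by 1.39 and *Pfkfb4* rose by 1.49 on the log2 scale, and *Pfkfb3* was not called with the hepatocyte markers set equal. *Nr1h3*, encoding LXRα, was lower (-0.61) and *Prkab2*, an AMPK subunit, higher (0.75), and the sign of *Nr1h3* turned with the hepatocyte markers set equal (0.03). The count of higher sensing genes was 2 without control 2 and 3 without control 3 or g*Spns1*-cKO 3.

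Among 25 further glycogen genes, 24 were tested, 2 were higher and 5 lower, with a median log2 change of -0.15, and the share of lower genes was about the 20.5% of all genes tested. By library totals 7 were higher and with the hepatocyte markers set equal 13 were, and under both the 5 lower genes were no longer called lower. Of all 15449 genes tested, 7289 were higher and 970 lower by library totals, and 9293 and 601 with the markers. *Ugp2*, the UDP-glucose pyrophosphorylase, makes the activated glucose from which glycogen is built. It was at 332, 201 and 282 CPM in control and at 467, 426 and 499 CPM in g*Spns1*-cKO livers (0.77, SE 0.18, adjusted p = 0.00647). The gene listed as *Pgm1* (ENSMUSG00000029171) rose by 1.14 (adjusted p = 0.000324), and both were higher under all 4 scalings. So was every gene called higher with TMM. The far more abundant phosphoglucomutase gene, listed as *Pgm2* (ENSMUSG00000025791), was lower (-0.66, adjusted p = 0.00247). The other lower genes included *Stbd1*, which tethers glycogen to membranes (-0.85), *Epm2a*, the glycogen phosphatase laforin (-0.72), and *Gsk3a*, a kinase that inactivates glycogen synthase (-0.49). None of the lower glycogen genes was called under all 4 scalings, and *Gsk3a* turned sign with the hepatocyte markers set equal (0.15). The count of lower genes was 3 without g*Spns1*-cKO 3.

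**Figure D4:**
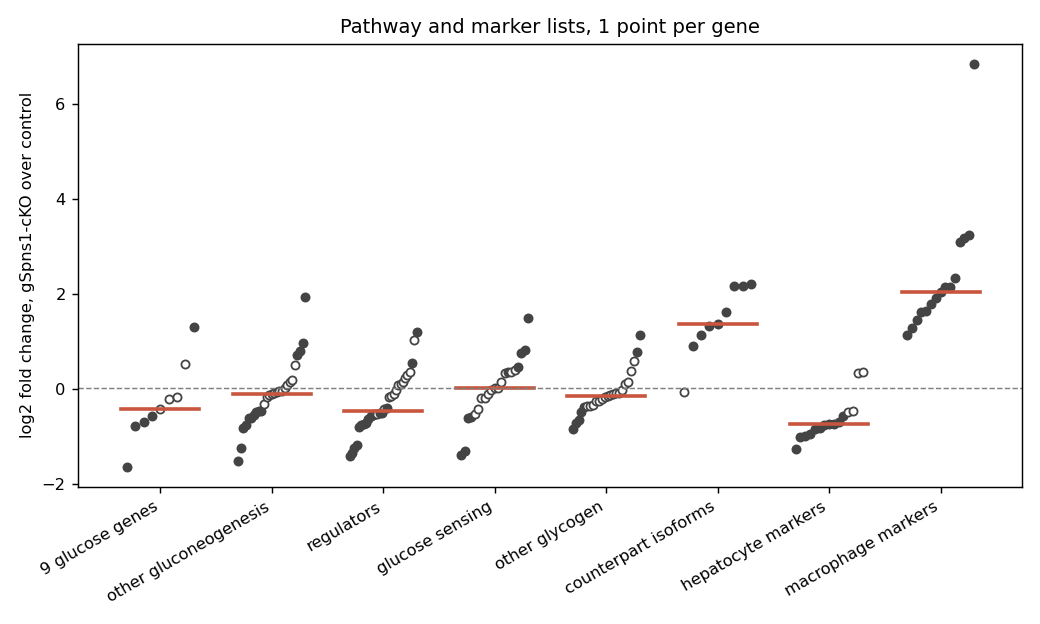
Log2 change (g*Spns1*-cKO over control, TMM scaling, vertical axis) of each tested gene in the 9 glucose genes, 5 pathway lists and the hepatocyte and macrophage markers, 1 point per gene, filled where the adjusted p was under 0.05, with a bar at the list median. The counterpart isoforms lie mostly above 0 with a median of 1.38, the regulators lean below it on this scaling with a median of -0.46, and the hepatocyte and macrophage markers have medians of -0.73 and 2.04.

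Because the feeding state and hour of sampling are not given, genes known to follow them were listed beside the glucose genes. Of 19 fasting-induced genes, which include *Pck1* and *Ppargc1a*, 10 were lower and 3 higher, with a median log2 change of -0.55, beside 20.5% lower and 21.3% higher of all genes tested. By library totals 7 were lower and 5 higher, and with the hepatocyte markers set equal 5 were lower and 7 higher. Of all 15449 genes tested, 970 were lower and 7289 higher by library totals, and 601 and 9293 with the markers. *Igfbp1*, which insulin represses and amino acid shortage induces, was at 61.7, 71.4 and 37.1 CPM in control and at 786, 677 and 546 CPM in g*Spns1*-cKO livers (3.56, SE 0.26, adjusted p = 2.71e-05), and *Pdk4*, the kinase that closes pyruvate dehydrogenase, changed by 1.11 (adjusted p = 0.00411). The largest falls of the list were -4.01 in *Acot1*, -2.86 in *Angptl4* and -1.99 in *Vnn1*, which fatty acids are known to induce through PPARα, whereas other such genes of the list did not pass, with changes of 0.27 in *Cyp4a14* and -0.1 in *Cyp4a10*. Both directions held for some genes, with *Igfbp1*, *Pdk4* and *Ppargc1a* higher and *Pck1*, *Acot1*, *Angptl4* and *Vnn1* lower under all 4 scalings. For the higher genes this adds no support, since every gene called higher with TMM was called so under all 4.

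Of 14 feeding-induced genes, 1 passed the threshold, *Acaca*, the acetyl-CoA carboxylase of fatty acid synthesis, which was higher (1.13, adjusted p = 0.0378), and the median of the list was 0.26. By library totals 3 were higher, and with the hepatocyte markers set equal 6 were, where 7289 and 9293 of all 15449 genes tested were. The call of *Acaca* rested on single libraries, since the count of higher genes was 0 on leaving out control 2, control 3, g*Spns1*-cKO 1 or g*Spns1*-cKO 3 and 3 without control 1. Of 19 clock genes, 18 were tested, 5 were lower and 1 was higher, with a median of -0.24, beside 20.5% lower and 21.3% higher of all genes tested. By library totals 3 were lower and 5 higher, and with the hepatocyte markers set equal 1 was lower and 8 were higher. Of all genes tested, 970 were lower and 7289 higher by library totals, and 601 and 9293 with the markers. *Arntl*, encoding BMAL1, rose by 1.82 (adjusted p = 0.00271), while *Dbp*, whose transcript peaks at the opposite time of day, changed by -2.58 (adjusted p = 0.0348, with exons that overlap *Sphk2* on the opposite strand) and *Tef* by -0.94 (adjusted p = 0.00142), calls that were lost for both with the hepatocyte markers set equal. The lower clock genes numbered 3 without control 1 or g*Spns1*-cKO 3, and the higher ones 4 without g*Spns1*-cKO 1. The part of the time of day or of feeding in the changes of the glucose genes was not tested.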

How the data were processed

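Liver RNA-Seq was analysed for 6 mice, 3 control and 3 g*Spns1*-cKO, grouped by the sample labels. Per the labels, poly-A mRNA was sequenced by a service company, and the submitters' processing notes name fastp, HISAT2 2.0.5, featureCounts 1.5.0-p3 and mm10, with no strand setting given. The authors deposited whole-number counts per gene, not normalized, and these were used for all tests. The authors also deposited FPKM values, a signal per genotype, which is a group mean of size-factor-scaled counts, and their own comparison of the genotypes as a log2 value with raw and adjusted p-values. None of these was used here. The deposited gene length was used only for TPM and per-length ratios.

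Genes kept by filterByExpr (15449) were scaled by TMM and compared by edgeR 4.0.16 (R 4.3.3) with the robust quasi-likelihood test and Benjamini-Hochberg adjustment over all genes, at a threshold of 0.05. The paper's text names no test for these data. The SE of a log2 change was obtained by dividing the change by the square root of its F statistic. GENCODE M21 holds 54409 of the genes, 98.3% of them with the same coordinates, so positions are on GRCm38. Ratios added 0.5 to each count. A count of 3 corresponded to 0.0763 to 0.119 CPM, a floor that covers counting error only. Libraries of a group differed by more than sampling noise, with a chi-square per gene of 42.8 to 127. The p-values measure the spread between these mice, which may be partly technical.

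Alternatives were DESeq2 1.42.0, limma 3.58.1 (voom), other scalings and filters, a replicate block and leaving out each library. The size factors of DESeq2, run in edgeR as a scaling outside the 4 compared, gave a median log2 change of 0.009 over all genes tested. Scaling by the geometric mean of 15 hepatocyte markers was added after seeing the data. The glucose genes and lists were chosen with earlier results of these data known. Named were all 9 genes, *Spns1*, both genes of each ratio and, per list, up to 4 genes past the threshold with the largest change each way. *Mlxipl*, *Foxo1*, *Hnf4a* and *Gys1* were named for their role beside that rule, and *Cyp4a10* and *Cyp4a14* after their values were seen. Of the listed genes 1 is not reported here and was left out of the lists and ratios. The scripts were tested on simulated data.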

Additional observations from a re-analysis of the deposited data

How the results depend on the processing

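The scaling mattered most, and how much RNA each liver held per cell was not measured. The median log2 change of all genes tested was 0.014 with TMM, 0.143 with upper-quartile scaling, 0.457 by library totals and 0.652 with the hepatocyte markers set equal, and changes can be read relative to these. By library totals 7289 genes were higher and 970 lower, where TMM gave 3286 and 3166. With the hepatocyte markers set equal 9894 genes were called, 9293 higher and 601 lower. *Pck1* and *Ppargc1a* kept their direction and call under every alternative run, leaving out each library included. Of the 9 genes, 1 was called lower by library totals and 1 lower and 3 higher with the hepatocyte markers, where TMM gave 4 and 1. By library totals *Pcx* was at -0.11, *Fbp1* at -0.26, *G6pc* at -0.33, *Slc2a2* at 0.23, *Gys2* at 0.02 and *Pygl* at 0.28. With the hepatocyte markers they were at 0.08, -0.05, -0.14, 0.43, 0.2 and 0.49, and *Pklr* was at 1.17. With upper-quartile scaling *G6pc* was at -0.65, and with every gene that had a count *Gys2* was called at -0.44.

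For the lists, library totals gave 12 higher and 2 lower with a median of 0.34 (gluconeogenic route), 8, 5 and -0.02 (regulators), 10, 2 and 0.47 (sensing), 7, 0 and 0.29 (glycogen), and a median of 1.83 (counterpart isoforms). The hepatocyte markers gave, in that order, 16, 2 and 0.52, then 12, 3 and 0.17, then 14, 1 and 0.68, then 13, 0 and 0.5, and a median of 2.02. Upper-quartile scaling gave 5 lower and a median of 0.03 (route), 4 higher and -0.33 (regulators), 0.16 (sensing), -0.02 (glycogen) and 1.51 (counterparts), which was 1.55 with at least 10 counts in every library. The cause of these shifts is the scaling itself.

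Leaving out 1 library at a time, 4490 to 6429 genes were called, 2365 to 3213 higher and 2125 to 3216 lower. The change of *Pcx* was -0.63 to -0.5, of *Pck1* -2.0 to -1.34, of *Fbp1* -0.85 to -0.57, of *G6pc* -1.01 to -0.58, of *Ppargc1a* 0.97 to 1.53, of *Slc2a2* -0.36 to -0.13, of *Pklr* 0.3 to 0.85, of *Gys2* -0.55 to -0.24 and of *Pygl* -0.29 to 0.07, turning without control 1 (0.07) and g*Spns1*-cKO 2 (0.05). Of the 9 genes 3 to 4 were lower and 1 higher. The counts of higher and lower genes and the medians were 4 to 5, 4 to 10 and -0.17 to -0.05 (route), 1 to 4, 13 to 16 and -0.53 to -0.36 (regulators), 2 to 7, 3 to 4 and -0.09 to 0.16 (sensing), 2, 3 to 6 and -0.19 to -0.13 (glycogen), and 6 to 7, 0 and 1.29 to 1.64 (counterparts). The ratios to *Pklr* were -2.87 to -1.65 (*Pck1*), -1.62 to -0.86 (*G6pc*), -1.49 to -1.03 (*Fbp1*), -1.42 to -0.83 (*Pcx*) and 0.71 to 1.35 (*Pkm*). The others were -1.25 to -0.64 (*Pck1* to *G6pc*), -0.66 to 0.06 (*Gys2* to *Pygl*), 1.15 to 1.59 (*Gys1* to *Gys2*), 2.03 to 2.66 (*Pygb* to *Pygl*) and -0.01 to 0.42 (*Slc2a1* to *Slc2a2*). With 1 library left out an exact permutation p cannot go below 0.2.

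The replicate numbers are shared between the groups and are not stated to pair the mice. The deviations of same-numbered libraries correlated at 0.04, 0.03 and -0.03, which cannot decide whether littermates share a number. With the replicate number as a block 6100 genes were called, 3084 higher and 3016 lower, no call of the 9 genes changed, and the changes were -0.56 for *Pcx*, -1.72 for *Pck1*, -0.72 for *Fbp1*, -0.78 for *G6pc* and 1.24 for *Ppargc1a*.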
